A study of Rattus norvegicus with 44 samples.

Results

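The liver response of rats to compound R2 at 300 mg per kg per day was set against the liver response to compound R1 at 100 mg per kg per day, both at 24 h. Each response is a difference from the vehicle animals of its own study, and the comparison is the difference of those differences: (R2 300 minus vehicle, study 4) minus (R1 100 minus vehicle, study 1). It uses 15 of the 44 arrays of the series, in 4 of its 11 groups: 3 arrays of R1 100 and 3 of vehicle from study 1, and 5 arrays of R2 300 and 4 of vehicle from study 4. All animals were male Wistar rats, a common outbred laboratory strain, 8 weeks old, dosed by gavage with compound or with the citric acid buffer that served as vehicle, and killed 24 h after the last dose. Each array measured total RNA from a slice of the left lateral liver lobe on an Affymetrix rat chip. The labels give both compounds by code name alone. The doses differ, and compound, dose and study change together, so their parts in any difference cannot be told apart. The labels number the arrays within a group and say nothing of pooling, so the p-values measure the spread between arrays of a group. That spread was estimated over all 44 arrays in the 11 groups, which include other doses and times. In slices of whole liver, fewer cells of a type and less RNA per cell cannot be told apart.

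The liver makes cholesterol from acetyl-CoA through mevalonate and squalene. The transcription factor SREBP2 raises the enzymes of that route when sterols run short in the endoplasmic reticulum, and a related factor, SREBP1, drives fatty acid synthesis. Foreign compounds that bind the nuclear receptors CAR and PXR raise cytochrome P450 enzymes and transporters, while electrophiles and oxidants release NRF2, which raises glutathione enzymes. The lists share some genes, such as Ephx1 and Akr7a3 (CAR, PXR and NRF2) and Me1 (NRF2 and fatty acid synthesis), and each programme is a common part of the response of rodent liver to a drug.

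Values are MAS5 signals, a brightness per probe set on a linear scale, and tests ran on log2 of the signal plus 2.888, which shrinks the changes of dim genes. A probe set or gene is called when its limma p-value, adjusted by Benjamini-Hochberg over the 6361 probe sets tested, stays below 0.05; errors of log2 changes are standard errors from that fit. One probe set stands for each of the 3696 genes. The number of arrays limits the precision: the median half-width of the 95% interval was 0.66 log2 units for the R1 effect, 0.54 for the R2 effect and 0.85 for their difference. R2 replicates 1 and 2 had the lowest relative weights of the R2 arrays in an array-weighted fit, 0.417 and 0.347. Replicate 3 was nearer to them, at 0.549, than to replicates 4 and 5, at 1.42 and 1.44. The mean correlation with the group was 0.942, 0.937 and 0.942 for replicates 1, 2 and 3 and 0.952 for both 4 and 5. The 9 hepatocyte markers tested of 10 listed summed to signals of 48210.1 to 49071 in the vehicle arrays of study 1, 45673 to 46767 with R1, 43559.7 to 49158 in the vehicle arrays of study 4 and 38740.3 to 44928 with R2, so the labelled tissue was present in every group. Of these markers, Cps1 fell with both compounds, Tat fell with R2 (-1.13) and Hnf4a rose with R1 (0.80). Their mean log2 signal was 11.19 to 11.49 in the vehicle arrays of study 4 and 10.72 to 11.13 with R2, without overlap. In study 1 it was 11.43 to 11.47 in vehicle and 11.28 to 11.47 with R1. Of 8 bile duct markers, Krt8 and Krt18, keratins that hepatocytes also make, rose with both compounds, by 1.18 and 0.77 log2 units with R1 and by 1.22 and 0.83 with R2; without vehicle replicate 2 of study 1 the limma adjusted p of Krt8 with R1 was 0.0792, and without R1 replicate 1 or 2 or vehicle replicate 3 that of Krt18 was 0.0531, 0.0874 and 0.098. Krt19, Epcam, Spp1, Cftr, Muc1 and Cd24 gave -0.40, 0.45, -0.44, -0.22, -0.15 and 0.02 with R1, none called. With R2, Krt19, Spp1, Cftr, Muc1 and Cd24 gave 0.77, 0.34, -0.59, -0.05 and 0.09, none called. The summed signal of the 8 bile duct markers was 770.1 to 885 in the vehicle arrays of study 1 and 1386 to 1604 with R1. In study 4 it was 730.1 to 1155 in vehicle and 1403 to 2369 with R2. Their mean log2 signal overlapped in study 1, at 4.89 to 5.19 in vehicle and 4.97 to 5.33 with R1. In study 4 it was 4.84 to 5.41 in vehicle and 5.44 to 5.85 with R2, without overlap. Their part in the results was not tested. Epcam, an adhesion molecule of duct cells, rose with R2 by 1.08. Among markers of other cells, Acta2, the smooth muscle actin of stellate and vessel cells, fell with R2 (-1.93), 2 exocrine pancreas genes, Amy2a3 and Cela1, fell with R2 (-0.65 and -0.79), and Mcpt1l1, a mast cell protease, rose with R1 (1.99). With R1, Amy2a3 and Cela1 gave -0.44 and -0.66, neither called (limma adjusted p = 0.302 and 0.053). The mast cell markers Cpa3, Tpsb2 and Tpsab1 gave 0.33, -0.13 and -0.14 with R1. With R2, Col1a1 and Col1a2 gave -1.10 and -0.58, and Col3a1, Pdgfrb, Reln and Dcn gave -0.10, -0.05, 0.02 and 0.01. The pancreas genes Cpb1, Pnlip, Cela2a and Cel gave -0.61, -0.21, -0.08 and 0.56 with R2 and 0.76, -0.20, 0.70 and -0.09 with R1. None of these was called. The summed signal of the 7 stellate and fibroblast markers was 665 to 1248 in the vehicle arrays of study 4 and 659.7 to 755 with R2. That of the 6 pancreas markers was 332 to 511 and 204 to 303 in study 4, and 335 to 367 in vehicle and 236 to 316 with R1 in study 1. The mean log2 signal of the pancreas markers overlapped between vehicle and treated arrays in both studies. The summed signal of the 4 mast cell markers was 51.9 to 59.5 in the vehicle arrays of study 1 and 61.4 to 172 with R1. Their part in the results was not tested either. The markers of macrophages, endothelium, T and NK cells, B cells, neutrophils and erythroid cells that were tested gave no call in either effect.

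No gene passed the test of the difference between the effects. Of 6361 probe sets, 0 (0.0%) were called by limma, the smallest adjusted p was 0.0502, and 586 (9.21%) had an unadjusted p under 0.05, 283 with the R2 effect higher and 303 with it lower. The effects themselves were large. R1 100 changed 221 genes (5.98% of 3696), 118 up and 103 down, and R2 300 changed 570 (15.4%), 245 up and 325 down. Both changed 153 genes in the same direction (4.14% of those tested), 90 up and 63 down, which are 69.2% of the R1 calls and 26.8% of the R2 calls. Socs2 was the only gene called in opposite directions. An unnamed probe set was also called in opposite directions, at -1.69 ± 0.46 with R1 and 1.34 ± 0.38 with R2. Its difference of 3.03 (95% interval 1.82 to 4.24) had the smallest p of all (limma unadjusted p = 9.31e-06, adjusted p = 0.0502). For this probe set the vehicle arrays of study 4 minus those of study 1 gave -2.01. Among the alternatives, its difference passed without the filter on low signals (limma adjusted p = 0.0456) and without the variance trend (0.036). Over all 3696 genes the effects had a Pearson correlation of 0.54, as a description across genes, which are not independent; the effects share no array.

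The shared list leaned on the arrays of study 1. Without vehicle replicate 1 of that study the R1 calls fell from 221 to 131 genes and without its vehicle replicate 2 to 145, and without R1 replicate 1 they fell to 144; the shared genes then numbered 104, 112 and 103. The shared fallers were the more exposed, with 28 counted in place of 63 without either vehicle replicate 1 or R1 replicate 1, and 41 without vehicle replicate 2; of the 63, 28, 27 and 39 were still called down in both. In an alternative chosen after seeing the data, leaving out R2 replicates 1 and 2 together gave 376 R2 calls in place of 570 and 164 shared genes in place of 153. Of the 153 shared genes, 67 were called in both effects in the same direction in each alternative tried, apart from the pooled vehicles, which give neither effect. Of these, 53 were up and 14 down. Centring the arrays on 25 ribosomal protein genes moved the median R1 change of all probe sets from -0.04 to 0.17, and the 407 R1 calls (6.4% of probe sets), 252 higher and 155 lower, became 394 higher and 57 lower.

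**Figure D1:**
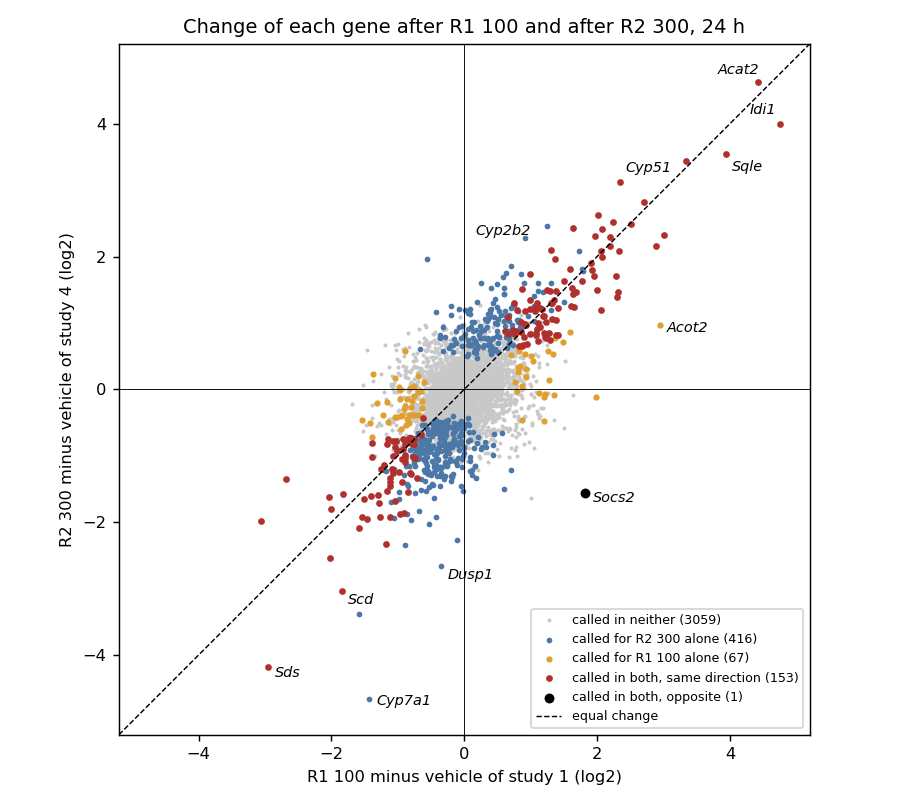
Log2 change of each of 3696 genes after R1 100 (horizontal axis) against its change after R2 300 (vertical axis), each point a gene coloured by the effects in which it was called. The 153 genes called in both effects in the same direction lie along the dashed line of equal change, from Acat2 and Idi1 at the upper right to Sds at the lower left; Socs2 is the single gene called in opposite directions.

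Cholesterol synthesis had the highest median change of all gene lists with both compounds. Of 14 genes of the list tested, 13 rose with R1 and the same 13 rose with R2, against 3.19% and 6.63% of all genes called up, and the median log2 change was 2.42 with R1 and 2.57 with R2 (all genes, -0.05 and -0.07). With each array left out in turn the count stayed at 13 with R1 and at 13 with R2. The 14th gene, Nsdhl, a sterol dehydrogenase, gave 0.56 with R1 and 0.49 with R2 and passed neither test. The median difference of the effects over the list was -0.01 log2 units.

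Promoters of list members that rose in both are shown because these genes moved together and many hold a CCAAT box, the site of NF-Y, a factor that works beside SREBP2 on sterol genes. The 4 sequences are the 250 bases before the start of transcription of the list members with a CCAAT box that rank highest by the smaller of their R1 and R2 changes, from RefSeq on build GRCr8, read on the gene's strand, with CCAAT or its reverse complement ATTGG in capitals.
Idi1, chr17:66547525-66547774, strand -: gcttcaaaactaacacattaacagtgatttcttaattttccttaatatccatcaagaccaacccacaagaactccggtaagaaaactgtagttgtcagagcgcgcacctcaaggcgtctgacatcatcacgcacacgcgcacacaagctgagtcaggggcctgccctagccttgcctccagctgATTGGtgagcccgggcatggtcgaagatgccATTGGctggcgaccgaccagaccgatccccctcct
Mvd, chr19:67414975-67415224, strand -: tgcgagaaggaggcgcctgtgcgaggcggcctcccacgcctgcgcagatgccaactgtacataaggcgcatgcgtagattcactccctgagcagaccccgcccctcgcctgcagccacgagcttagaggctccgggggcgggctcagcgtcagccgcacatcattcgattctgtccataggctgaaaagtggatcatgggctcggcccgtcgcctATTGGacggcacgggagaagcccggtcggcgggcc
Msmo1, chr16:29746863-29747112, strand +: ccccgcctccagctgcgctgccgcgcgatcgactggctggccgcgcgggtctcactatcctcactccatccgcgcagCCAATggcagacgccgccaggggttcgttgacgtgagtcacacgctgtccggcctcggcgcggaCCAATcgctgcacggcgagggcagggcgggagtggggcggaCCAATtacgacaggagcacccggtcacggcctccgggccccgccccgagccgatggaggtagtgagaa
Hsd17b7, chr13:84722755-84723004, strand -: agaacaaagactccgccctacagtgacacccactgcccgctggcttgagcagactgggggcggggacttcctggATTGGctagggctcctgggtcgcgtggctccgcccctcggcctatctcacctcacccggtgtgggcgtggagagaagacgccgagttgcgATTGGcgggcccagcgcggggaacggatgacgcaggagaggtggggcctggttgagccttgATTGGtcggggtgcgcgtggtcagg
The letters CCAAT were found on either strand in 9 of the 12 list members with a sequence in the table, against 36.1% of 3033 genes tested that have one, 48.1% of 77 shared risers and 51.9% of 54 shared fallers. The core CACCCCAC, part of one form of the sterol element, was found in 1 of the 12 (Ebp) and in 2.44% of all. These matches describe letters in a window and say nothing of binding.

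Idi1, which isomerises the basic isoprene unit and whose promoter is the first above, gave signals of 112, 132 and 173 in the vehicle arrays of study 1 and 4082, 3412 and 3753 with R1. In study 4 its vehicle arrays gave 235, 193, 167 and 189 and its R2 arrays 1816, 1994, 5424, 4005 and 3902. Every treated array lay above every vehicle array in both studies, as for 126 of 3696 genes (3.41%), and R2 replicates 1 and 2 were the lowest of the treated arrays. The log2 change was 4.75 ± 0.37 with R1 (limma adjusted p = 1.00e-12) and 3.99 ± 0.30 with R2 (adjusted p = 1.08e-13). The difference was -0.75 (95% interval -1.72 to 0.21) and was not called.

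Sqle, squalene epoxidase, showed the same arrangement of arrays. It rose from 93.9, 66.3 and 107 to 1447, 1143 and 1587 with R1 and from 141, 109.7, 77.3 and 130.4 to 790.4, 733, 2552, 1781 and 1601 with R2. R2 replicates 1 and 2 were again the lowest treated arrays, and the difference of -0.39 (95% interval -1.34 to 0.56) became 0.15 without them. Fdft1, squalene synthase, went from 626, 590.1 and 481 to 2695, 2468 and 2604 and from 567, 453, 455 and 519 to 1533, 1543, 3312, 2456 and 2864, with replicates 1 and 2 lowest once more. Its changes were 2.20 ± 0.23 and 2.16 ± 0.19, and the interval of the difference ran from -0.65 to 0.58.

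Acat2, which joins acetyl-CoA units at the head of the route, did not share that split. Its vehicle arrays gave 104, 82.9 and 53.3 and its R1 arrays 2087, 1507 and 1606; in study 4 they gave 52.4, 83.2, 51.9 and 132 and 2186, 1761, 2315, 1469 and 1883. It rose by 4.42 ± 0.40 and 4.62 ± 0.33 log2 units, the largest rise of all genes with R2, and the difference was 0.20 (95% interval -0.83 to 1.24). Mvd, mevalonate diphosphate decarboxylase, rose by 3.34 ± 0.40 and 3.44 ± 0.33, Msmo1, a sterol methyl oxidase, by 2.70 ± 0.25 and 2.83 ± 0.20, and Hsd17b7, a sterol ketone reductase, by 2.50 ± 0.31 and 2.50 ± 0.25. For Msmo1 and Hsd17b7 the whole interval of the difference lay within 1 log2 unit of 0.

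Lss and Cyp51, neighbours in the route, had the smallest p-values of the list and leaned opposite ways. Lss, lanosterol synthase, went from 25.4, 27.5 and 28.4 to 246, 244 and 228 with R1 and from 22.8, 28.8, 28.2 and 30.9 to 109.9, 116, 181, 154 and 213 with R2, so that every R2 array was below every R1 array. Its difference was -0.69 (95% interval -1.31 to -0.06, unadjusted p = 0.0313, limma adjusted p = 0.49). Cyp51, lanosterol demethylase, went from 569.8, 522 and 507 to 3604, 1976 and 2790.3 and from 299, 399, 262 and 439 to 3412, 2845, 2456, 2884 and 3604. Its treated arrays overlapped between the studies while its vehicle arrays did not, and the difference was 0.79 (95% interval 0.16 to 1.41, unadjusted p = 0.0151, limma adjusted p = 0.413). Insig1, an SREBP2 target that holds the sterol sensor in the endoplasmic reticulum, rose by 1.26 ± 0.32 with R1. With R2 the change was 0.58 ± 0.26 (limma adjusted p = 0.142), and the difference of -0.68 (95% interval -1.53 to 0.16) was not called. With its probe sets averaged, Insig1 was called with R2.

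Fatty acid synthesis genes did not follow the sterol genes. Srebf1, which encodes SREBP1, fell with both compounds, from 119, 127 and 83.8 to 27, 24.8 and 21.4 with R1 and from 79.6, 98.5, 75.8 and 103 to 31.9, 33.3, 4.79, 6.44 and 7.97 with R2, with log2 changes of -2.03 ± 0.40 and -2.53 ± 0.32. R2 replicates 1 and 2 were the highest of the R2 arrays. Scd, stearoyl-CoA desaturase, fell with both (-1.85 ± 0.56 and -3.03 ± 0.46), with a difference of -1.19 (95% interval -2.64 to 0.27); its R1 call was lost without R1 replicate 2 (limma adjusted p = 0.303) and without vehicle replicates 1, 2 or 3 of study 1 (adjusted p = 0.178, 0.0642 and 0.0509). Fasn, fatty acid synthase, gave 1.06 ± 0.37 with R1 (limma adjusted p = 0.0773, and 0.0386 without vehicle replicate 1 of study 1) and rose by 1.21 ± 0.30 with R2. Of 11 genes of the list, 1 (Me1) rose and 3 fell with R1, against 3.19% and 2.79% of all genes. With R2, 2 rose and 3 fell, against 6.63% and 8.79%. Elovl5, an elongase, was the third that fell, and its R1 call was lost without R1 replicate 2 (limma adjusted p = 0.0981).

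Genes that CAR and PXR control rose with both compounds. Of 21 genes tested, 11 rose and none fell with R1, against 3.19% and 2.79% of all genes. With R2, 16 rose and 1 fell, against 6.63% and 8.79%, and 10 rose with both compounds. The median log2 changes were 1.30 and 1.44, and the median difference was -0.11. Members of the Cyp2b, Cyp3a, Ugt2b and Sult2a families have near-identical copies, so which member a probe set measured is uncertain. Cyp3a23-3a1, the main PXR-driven P450 of rat liver, went from 2253, 2939 and 2397 to 11688, 10952 and 12071 with R1 and from 1916, 2695, 1976 and 2468 to 9475, 9998, 11270.4, 11270.4 and 13236 with R2. These treated signals stood near the top of the scale, at which the highest value is 13236, and the changes of 2.20 ± 0.20 and 2.29 ± 0.16 differed by 0.09 (95% interval -0.42 to 0.61).

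Slco1a4, an uptake transporter for organic anions, rose by 2.34 ± 0.31 with R1 and 2.09 ± 0.26 with R2. Its R1 arrays gave 2009, 2164 and 2456 against 303, 519 and 519, and its R2 arrays 992, 759, 1432, 1617 and 1496 against 261, 341, 232 and 309, with no overlap in either study and every R2 array below every R1 array. Aldh1a1, a retinal dehydrogenase, rose by 2.08 ± 0.36 and 2.42 ± 0.29, Por, the reductase that hands electrons to P450 enzymes, by 2.28 ± 0.40 and 1.70 ± 0.33, and Alas1, the first enzyme of heme synthesis, by 1.63 ± 0.27 and 1.52 ± 0.22.

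Cyp2b2, the classical CAR target of rat liver, was the member whose effects lay furthest apart. With R2 it rose by 2.27 ± 0.28 (limma adjusted p = 5.77e-08), from 288, 699, 604 and 308 to 2164, 2059, 2289.7, 2315 and 1898. With R1 the change of 0.92 ± 0.35 did not pass (limma adjusted p = 0.115), from 1469, 1623 and 1244 to 2411, 2109 and 3934. The treated arrays of the studies overlapped, and the vehicle arrays did not: the vehicle arrays of study 4 minus those of study 1 gave -1.70 ± 0.32 log2 units (limma adjusted p = 5.25e-04). The difference of the effects was 1.36 (95% interval 0.45 to 2.26, unadjusted p = 0.00424, limma adjusted p = 0.316). Cyp2b3, of the same family, was the single faller, at -1.10 with R2 and -0.12 with R1.

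NRF2 targets rose in both as well. Of 19 genes, 9 rose with R1, against 3.19% of all genes. With R2, 13 rose and 1 fell, against 6.63% and 8.79% of all genes, and the 9 were among the 13. Medians were 1.11 and 1.05, with a median difference of 0.02 that became -0.18 with arrays centred on ribosomal protein genes. That centring also moved the median difference of all probe sets, from -0.03 to -0.23. Hmox1, heme oxygenase, went from 30.2, 38.1 and 56.2 to 248, 140.1 and 159 with R1 and from 81.9, 44.6, 64.9 and 48.8 to 289, 271, 236, 228 and 262 with R2. No treated array overlapped its vehicle arrays, and the changes of 2.06 ± 0.31 and 2.08 ± 0.26 differed by 0.02 (95% interval -0.80 to 0.84). Gclc and Gclm, the subunits of the enzyme that limits glutathione synthesis, rose by 1.38 and 1.15 with R1 and by 1.05 and 1.23 with R2. Me1, malic enzyme, a source of NADPH, rose by 1.96 ± 0.42 and 1.70 ± 0.35.

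The letters TGACNNNGC, the core of the element that NRF2 reads, were searched on both strands of the same windows. They were found in 7 of the 17 list members with a sequence and in 13.4% of all genes, and Me1, which ranks first of these by the smaller of its R1 and R2 changes, is shown with the match in capitals.
Me1, chr8:96540245-96540494, strand -: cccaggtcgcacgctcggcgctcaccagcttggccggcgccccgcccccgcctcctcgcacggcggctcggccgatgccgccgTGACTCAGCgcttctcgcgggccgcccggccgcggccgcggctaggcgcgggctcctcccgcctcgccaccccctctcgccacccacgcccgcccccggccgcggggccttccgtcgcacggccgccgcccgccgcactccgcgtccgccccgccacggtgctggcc
Nqo1, a quinone reductase often taken as the marker of NRF2, rose with R2 by 1.70 ± 0.52 (limma adjusted p = 0.0186), from 61, 57.5, 126 and 276 to 408, 439, 219.6, 434 and 301; without vehicle replicate 1 or 2 of study 4 the limma adjusted p was 0.086 or 0.0895, and without R2 replicates 1 and 2 it was 0.112. With R1 it gave 0.59 ± 0.63, and the difference of 1.11 (95% interval -0.54 to 2.75) was not called. Gsta4, a glutathione transferase, fell with R2, at -0.83, and gave -0.09 with R1.

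Subunits of the proteasome, which degrades tagged proteins, rose together with both compounds. Of 19 subunits, 13 rose with R1 and 17 with R2, against 3.19% and 6.63% of all genes. None fell, and the 13 were among the 17. Medians were 0.91 and 1.01. Psma5, of the core's outer ring, gave 190.1, 180.1 and 195 in vehicle and 532, 445 and 449.7 with R1, and 230.1, 242, 225 and 194 in vehicle and 558, 519, 493, 539 and 678 with R2. The treated arrays lay above all vehicle arrays, the changes were 1.32 ± 0.19 and 1.31 ± 0.16, and the difference of -0.01 (95% interval -0.51 to 0.49) had a narrow interval. These values are of 1 probe set. With the probe sets of Psma5 averaged, its R2 call was lost (limma adjusted p = 0.127). Psmc4 and Psmc5, ATPases of the cap, rose by 1.29 and 0.99 with R1 and by 1.49 and 1.35 with R2. Psmb4 gave the same estimate of 1.79 in both, with R2 arrays at 3054, 3312, 1898, 387 and 452; it passed for R2 alone, and that call was lost without R2 replicate 1 (limma adjusted p = 0.0736), R2 replicate 2 (0.0804) or vehicle replicate 2 or 3 of study 4 (0.0571 and 0.0706).

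**Figure D2:**
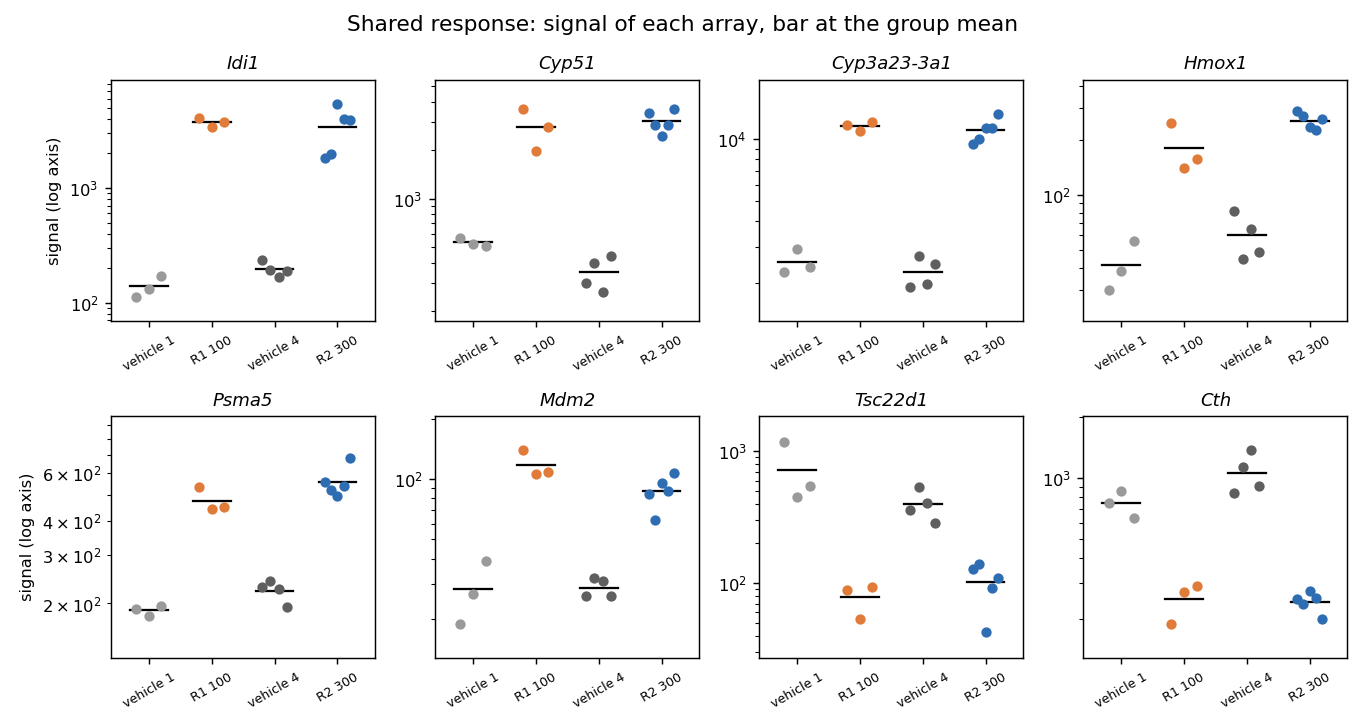
MAS5 signal of each array (points, log axis) for 8 genes of the shared response in the vehicle and R1 100 arrays of study 1 (n = 3 and 3) and the vehicle and R2 300 arrays of study 4 (n = 4 and 5), with a bar at each group mean. In each panel the treated arrays of a study lie entirely to one side of its vehicle arrays.

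Mdm2 and Gadd45a, genes that p53 raises, rose with both. Mdm2, the ligase that limits p53, went from 18.9, 26.9 and 38.9 to 139, 106 and 108 with R1 and from 26, 32, 31 and 26.2 to 84.3, 62.3, 95.9, 87.2 and 107 with R2, or by 1.99 ± 0.30 and 1.49 ± 0.24. Gadd45a, a growth arrest gene, rose by 1.29 ± 0.30 and 0.75 ± 0.24, and its R2 call was lost without any 1 of R2 replicates 3, 4 and 5 or of the 4 vehicle arrays of study 4 (limma adjusted p up to 0.0787), and its R1 call without R1 replicate 1 (0.0592). Both Gadd45a calls were also lost with its probe sets averaged. Cdkn1a, the cell cycle inhibitor that p53 also raises, gave -0.58 ± 0.57 and -1.22 ± 0.47 and passed neither test. Ccnd1, cyclin D1, rose with both, by 1.35 ± 0.30 and 1.34 ± 0.25, with arrays of 150.4, 223 and 171 against 74.4, 55.9 and 77.6 and 85.6, 85.5, 98.6, 148 and 183 against 34, 49.8, 47.8 and 44. Of the other 14 genes of the cell cycle list, none was called with R1, while Cdk2 rose and Ccnb1, Cdk1 and Top2a fell with R2. Of all genes, 6.63% rose and 8.79% fell with R2. The calls of Ccnb1 and Cdk1 were lost without R2 replicate 3 (limma adjusted p = 0.0528 and 0.0509) and without vehicle replicate 2 of study 4 (0.0709 and 0.145), and that of Cdk1 also without other single arrays; without R2 replicates 1 and 2 the list held 1 riser and 1 faller.

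Among genes of the amino acid stress response under ATF4, 2 of 11 rose in both, and Inhbe, an activin chain, fell with R1. The shares of all genes that rose and fell with R1 were 3.19% and 2.79%. In all, 7 of the 11 rose with R2, against 6.63% of all genes. No member of the list fell with R1 without R1 replicate 1, 2 or 3 or without vehicle replicate 1 or 2 of study 1. Psat1, of serine synthesis, went from 9.13, 13 and 11.4 to 115, 45.7 and 32.4 and from 8.53, 14.7, 12.7 and 13.1 to 72.3, 115, 33.1, 40.2 and 51.3, and Slc3a2, the heavy chain of amino acid transporters, from 101, 128 and 145 to 599, 374 and 349 and from 132, 121, 115 and 118 to 366, 400.2, 328, 404 and 419. All their treated arrays were above the vehicle arrays; the Psat1 call with R1 was lost without R1 replicate 1 (limma adjusted p = 0.0556), which leaves 1 riser with R1 in the list. A further 5 rose with R2 alone: Trib3, a pseudokinase, by 1.75 ± 0.45 (0.63 ± 0.54 with R1), Gdf15, a stress hormone, by 1.52 ± 0.43 (0.60 ± 0.53), Phgdh by 1.40 (1.05), Asns by 0.89 (0.30) and Atf3 by 0.83 (0.01). None of the 5 differences was called, and the Atf3 call was lost without R2 replicate 3 or 5 (limma adjusted p = 0.113 and 0.102) or vehicle replicate 1, 2 or 3 of study 4 (0.16, 0.0647 and 0.073).

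The shared fallers held many enzymes that break down amino acids. Of 29 genes of amino acid catabolism and the urea cycle, 9 fell with R1 (2.79% of all genes fell) and 21 fell with R2 (8.79%), the 9 among the 21, and none rose. Without R1 replicate 1 the R1 count was 4, without vehicle replicate 1 of study 1 it was 5, and with arrays centred on ribosomal protein genes it was 5. The medians were -0.46 and -1.02 and the median difference was -0.45, against -0.03 over all genes; without R2 replicates 1 and 2 the R2 median was -0.76, with 15 fallers, and the median difference -0.26. Oat, ornithine aminotransferase, and Kmo and Kynu, of tryptophan breakdown, had an unadjusted p of the difference under 0.05, all with the R2 effect lower (-1.49, -0.71 and -1.10), and none was called. That is 3 of 29, near the share of all genes with such a p (9.01%), and 1 of 29 without R2 replicates 1 and 2. Of 15 genes of glucose handling, 3 fell with R1 and 6 with R2, the 3 among the 6, and the R1 count was 1 without vehicle replicate 1 of study 1.

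Sds, serine dehydratase, fell furthest of this list in both effects. Its vehicle arrays gave 121, 116 and 48 and its R1 arrays 8.57, 12.4 and 6.35; in study 4 the vehicle arrays gave 153, 177, 393 and 217 and the R2 arrays 3.42, 8.11, 8.61, 16 and 15.3. No treated array overlapped a vehicle array, as for 130 genes that were lower in both studies (3.52%), and the changes were -2.95 ± 0.80 and -4.18 ± 0.66, with a difference of -1.23 (95% interval -3.32 to 0.86). The R1 call was lost without R1 replicate 1 or 3 (limma adjusted p = 0.0538 and 0.0593) and without vehicle replicate 1 or 2 (0.0809 and 0.0727). Averaging the probe sets of Sds also lost that call. Cth, which makes cysteine from cystathionine, fell from 753, 861 and 634 to 189, 273 and 290.3 and from 842, 1123, 1365 and 909 to 251, 237, 275, 254 and 200.1, with log2 changes of -1.58 ± 0.28 and -2.09 ± 0.23. Cps1, the entry enzyme of the urea cycle, fell, at -1.05 ± 0.27 and -1.68 ± 0.22; its R1 call was lost without R1 replicate 1 (limma adjusted p = 0.0854) or vehicle replicate 1 (0.0657). Of later enzymes of the cycle, Otc gave -0.75 ± 0.36 with R1 and fell with R2, at -1.56 ± 0.30, Ass1 fell in both, at -0.92 and -0.90, and Arg1 gave -0.18 and -0.14.

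Tsc22d1, a leucine zipper protein, fell with both (log2 changes of -3.07 ± 0.50 and -1.99 ± 0.41), from 1169, 449 and 549 to 88.3, 53.6 and 93.5 and from 362, 534, 405 and 285 to 129, 140.3, 42.6, 92.6 and 109. Aqp9, the glycerol channel of hepatocytes, fell with both (-1.41 ± 0.31 and -1.61 ± 0.26), with a difference of -0.20 (95% interval -1.01 to 0.62). Slc37a4, which carries glucose 6-phosphate into the endoplasmic reticulum, fell with both (-1.07 ± 0.24 and -1.0 ± 0.20), with a difference of 0.07 (95% interval -0.56 to 0.70). Il33, an alarm cytokine, Slc2a5, the fructose transporter, and Slc6a6, the taurine transporter, fell, at -1.52, -1.47 and -2.03 with R1 and -1.65, -1.94 and -1.62 with R2; without vehicle replicate 1 of study 1 the limma adjusted p of the R1 effect was 0.0608 for Il33 and 0.105 for Slc2a5, and without R2 replicates 1 and 2 that of the R2 effect was 0.0754 for Slc6a6.

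**Figure D3:**
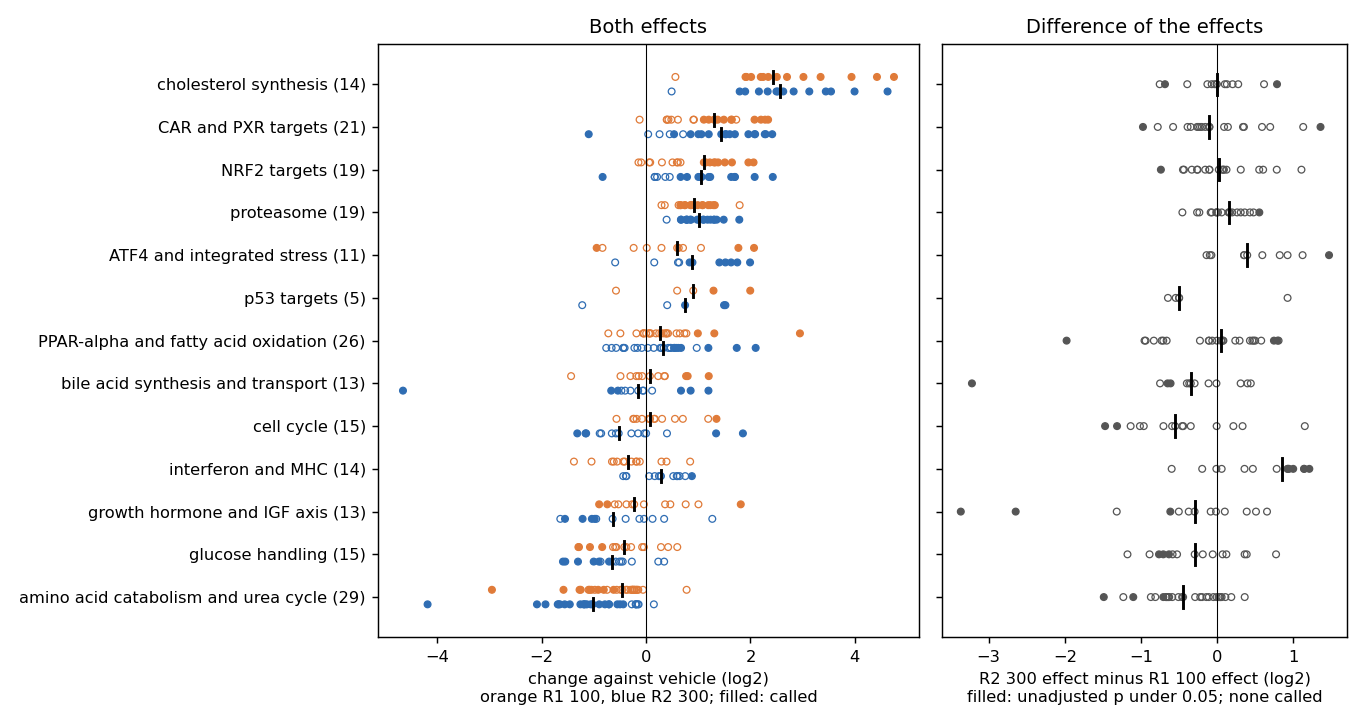
Left, log2 change of each tested member of 13 gene lists with R1 100 (orange) and R2 300 (blue), filled where called, with a bar at the median; numbers in brackets are genes tested. Right, the R2 effect minus the R1 effect of the same members in log2 units, filled at an unadjusted p under 0.05; none was called, and the medians range from -0.55 for the cell cycle list to 0.85 for the interferon list.

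How alike the shared changes were can be read from the intervals. Among the 153 shared genes the median change up was 1.31 with R1 and 1.28 with R2, and the median change down -1.07 and -1.24. The R2 change was the larger for 79 genes and the R1 change for 74. The estimates lay within 0.5 log2 units of each other for 119 genes, and the whole 95% interval of the difference lay within 1 log2 unit of 0, a factor of 2, for 78, against 30.5% of all genes tested. For the other shared genes the interval reached past that factor at this number of arrays. A call in both effects is how these genes were chosen, so the counts are a description.

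Genes called in 1 effect alone mostly moved the same way in the other. Of 416 genes called with R2 alone, 362 had the same sign with R1, with a median of 0.38 along the R2 direction against 0.91 with R2. Of 67 called with R1 alone, 51 had the same sign with R2, with a median of 0.28 against 0.93. Over all genes 63.3% had the same sign. A call in 1 effect and not in the other shows no difference between them: 98 of the 416 and 35 of the 67 had an unadjusted p of the difference under 0.05 (9.01% of all genes), and 0 were called. The choice of these genes used the same arrays as the difference and favours unlike effects, so the counts are a description.

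The genes whose effects lay furthest apart by p-value were Socs2, Npepps, Anapc15, Eif5b, Ubxn1, Cald1, Efna1, Slc16a1, Mgst3 and Grik4, 10 genes chosen after their values were seen. Their limma adjusted p-values ran from 0.0862 to 0.185, and 8 of the 10, all but Slc16a1 and Grik4, passed in 1 to 4 of the alternatives that keep each study's own vehicle arrays. Anapc15, Eif5b, Ubxn1, Cald1, Efna1 and Mgst3 passed in 1 alone. None of the 10 passed in the rest of these alternatives, which include each array left out in turn. Socs2, a brake on growth hormone signalling, came first among genes. In study 1 it rose from 4.62, 11.6 and 7.72 to 46.3, 29.3 and 28.8, and in study 4 it fell from 110.4, 26, 83.2 and 43.9 to 26.3, 18.6, 13.3, 19 and 13.6. The R1 arrays lay above their vehicle arrays without overlap, the lowest vehicle array of study 4 lay just below the highest R2 array, and every treated array lay above every vehicle array of study 1. The changes were 1.81 ± 0.57 (limma adjusted p = 0.0435) and -1.55 ± 0.47 (adjusted p = 0.0167), and the difference was -3.37 (95% interval -4.85 to -1.88, unadjusted p = 4.07e-05, limma adjusted p = 0.0862). Without any 1 of these 6 arrays of study 1 the R1 call was lost (limma adjusted p up to 0.203), and without vehicle replicate 1 or 3 of study 4 the R2 call was (limma adjusted p = 0.0958 and 0.0686). The difference passed with the 15 arrays fitted alone (limma adjusted p = 0.0339), without R2 replicate 4 (0.0494), without vehicle replicate 2 of study 4 (0.0338) and with arrays centred on ribosome genes (0.0427). Cish, another growth hormone brake of the same family, gave 1.00 ± 0.82 with R1 and -1.64 ± 0.67 with R2, neither called.

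Mgst3, a microsomal glutathione transferase, was low with R2. It fell from 1022, 1307, 1452 and 1344 to 276, 296, 184, 533 and 355, with a log2 change of -2.03 ± 0.24 (limma adjusted p = 2.59e-08); with R1 it gave 881, 942 and 1019 against 1432, 1512 and 1163, a change of -0.52 ± 0.30 that did not pass. The vehicle arrays of the studies overlapped, every R2 array was below every R1 array, and the difference was -1.50 (95% interval -2.28 to -0.73, unadjusted p = 3.33e-04, limma adjusted p = 0.141). Without R2 replicate 4 the limma adjusted p was 0.0494. Cald1, caldesmon, an actin-binding protein, had vehicle arrays of 73.6, 77.6, 75.7 and 79.8 and R2 arrays of 36.7, 21.8, 26.4, 58.6 and 57.1, a fall (log2 change of -0.98 ± 0.23), with 0.43 ± 0.28 in R1. The difference was -1.42 (95% interval -2.14 to -0.70, unadjusted p = 2.80e-04, limma adjusted p = 0.134), and its limma adjusted p without R2 replicate 4 was 0.0494.

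Anapc15, a subunit of the complex that drives cells out of mitosis, was high with R2. Its R2 arrays gave 45, 38.3, 30.3, 17.2 and 17.3 against 2.87, 6.66, 4.69 and 6.02, and its R1 arrays 4.74, 6.49 and 12.1 against 12.8, 30.3 and 3.75. The vehicle arrays of study 1 spread over the ranges of both treated groups, and the difference was 2.53 (95% interval 1.29 to 3.77, unadjusted p = 1.83e-04, limma adjusted p = 0.134). Without vehicle replicate 3 of study 1 the limma adjusted p was 0.0343. Efna1, a ligand of Eph receptors, rose with R2 from 145, 98.2, 78.5 and 88.4 to 197, 209, 436, 199 and 194 and was not called with R1, at 152, 175 and 150.2 against 187, 173 and 148. Its difference was 1.29 (95% interval 0.63 to 1.94, unadjusted p = 2.80e-04, limma adjusted p = 0.134), with a limma adjusted p of 0.0394 with arrays weighted, and R2 replicate 3 was far above the other R2 arrays. Ubxn1, a ubiquitin-binding protein, rose with R2 by 0.93 ± 0.20 and gave -0.32 ± 0.24 with R1. Its difference was 1.25 (95% interval 0.63 to 1.87, unadjusted p = 2.01e-04, limma adjusted p = 0.134), and without R2 replicate 4 the limma adjusted p was 0.0494.

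Npepps, an aminopeptidase, and Eif5b, a translation initiation factor, had vehicle groups that lay far apart. Npepps gave 133, 128 and 94.1 in the vehicle arrays of study 1 and 54.8, 49, 36.1 and 49.1 in those of study 4, while its treated arrays, 94.1, 42.4 and 58.5 with R1 and 67.9, 71.4, 92.8, 55.1 and 74.6 with R2, overlapped. Its difference was 1.47 (95% interval 0.80 to 2.15, unadjusted p = 7.17e-05, limma adjusted p = 0.114). The vehicle arrays of study 4 minus those of study 1 gave -1.27 (limma adjusted p = 5.05e-04). The difference passed without R1 replicate 1 (limma adjusted p = 0.0374), without R2 replicate 4 (0.0494) and with arrays weighted (0.0296). Eif5b had a difference of 1.28 (95% interval 0.65 to 1.91, unadjusted p = 1.95e-04, limma adjusted p = 0.134) beside a vehicle difference of -0.95, and with arrays weighted its limma adjusted p was 0.0394. Slc16a1, a lactate transporter, rose with R1 by 0.86 ± 0.26 and gave -0.45 ± 0.21 with R2, and Grik4, a glutamate receptor subunit near the bottom of the scale, rose with R1 by 1.20 ± 0.35 and gave -0.47 ± 0.29 with R2. The R1 call of Slc16a1 was lost without R1 replicate 2 or 3 or vehicle replicate 1 of study 1 (limma adjusted p up to 0.309) and that of Grik4 without R1 replicate 1 or 3 or vehicle replicate 1 or 3 (up to 0.125).

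Cyp7a1, the rate-limiting enzyme of bile acid synthesis, had the largest change down with R2. It fell from 71.8, 286, 109 and 121 to 2.93, 2.4, 2.33, 1.94 and 2.05, with all 5 R2 arrays below every vehicle array of study 4 and a log2 change of -4.66 ± 0.63 (limma adjusted p = 3.66e-07). With R1 the arrays gave 3.15, 22.3 and 29.8 against 60.2, 4.18 and 218, a change of -1.44 ± 0.77 that did not pass (limma adjusted p = 0.347, and 0.0159 without vehicle replicate 2). The vehicle arrays of study 1 spread from 4.18 to 218, and the difference was -3.22 (95% interval -5.23 to -1.21, unadjusted p = 0.00239, limma adjusted p = 0.309). Of the other 12 genes of bile acid synthesis and transport, the pumps Abcb4 and Abcc2 rose with both, by 0.80 and 1.20 with R1 and by 1.19 and 0.85 with R2, and Hsd3b7, of bile acid synthesis, rose with R1 (0.77). Without vehicle replicate 1 of study 1 these R1 calls were lost (limma adjusted p = 0.27, 0.0614 and 0.116). With R2, Abcb11, the bile salt pump, rose (0.67) and Slc10a1, the bile salt uptake carrier, and Baat, which conjugates bile acids, fell (-0.54 and -0.67). Without vehicle replicate 1 of study 4 these were lost (limma adjusted p = 0.153, 0.132 and 0.159). Of all genes, 3.19% rose with R1, and 6.63% rose and 8.79% fell with R2.

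Of 26 genes of PPAR-alpha and fatty acid oxidation, 3 rose with R1 and 6 with R2, against 3.19% and 6.63% of all genes called up. Ech1 and Eci1, isomerases that let unsaturated fatty acids enter oxidation, rose with both: Ech1 by 0.99 ± 0.18 and 1.74 ± 0.15, from 348, 351 and 449.7 to 636, 1054 and 652 and from 326, 269.5, 313 and 256 to 977, 819.7, 1195, 1088 and 834, and Eci1 by 1.31 ± 0.22 and 2.10 ± 0.18. Their differences were 0.75 (95% interval 0.27 to 1.22, unadjusted p = 0.0029, limma adjusted p = 0.309) and 0.79 (95% interval 0.21 to 1.38, unadjusted p = 0.0093, limma adjusted p = 0.368). Acot2, a mitochondrial thioesterase, leaned the other way: it rose with R1 by 2.95 ± 0.66, from 2.08, 0.923 and 29.2 to 43, 70.7 and 79.5, and gave 0.97 ± 0.54 with R2, from 4.47, 12.8, 8.81 and 15.9 to 14.8, 10.5, 22.5, 38.9 and 33.8, with a difference of -1.98 (95% interval -3.70 to -0.25, unadjusted p = 0.0258, limma adjusted p = 0.469). Cyp4a1 and Acot1, the usual signs of PPAR-alpha, gave 0.29 and 0.00 with R1 and -0.66 and 0.58 with R2 and passed no test.

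Interferon and MHC genes had the highest median difference of the lists, 0.85 over 14 genes, against -0.03 over all. With R1 no member was called and the median was -0.35; with R2 only RT1-Da, an MHC class II chain, rose, and the median was 0.28. That call was lost without R2 replicate 3 or vehicle replicate 1 of study 4 (limma adjusted p = 0.0591 and 0.161). Unadjusted p-values of the difference were under 0.05 for 5 of the 14, against 9.01% of all genes. All 5 had the R2 effect higher: Irf7 (1.21), Irf1 (1.14), Tap1 (1.14), RT1-Da (1.00) and Cd74 (0.92). None was called, and without R2 replicates 1 and 2 the median difference was 0.64. The median vehicle difference of the list was 0.02.

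**Figure D4:**
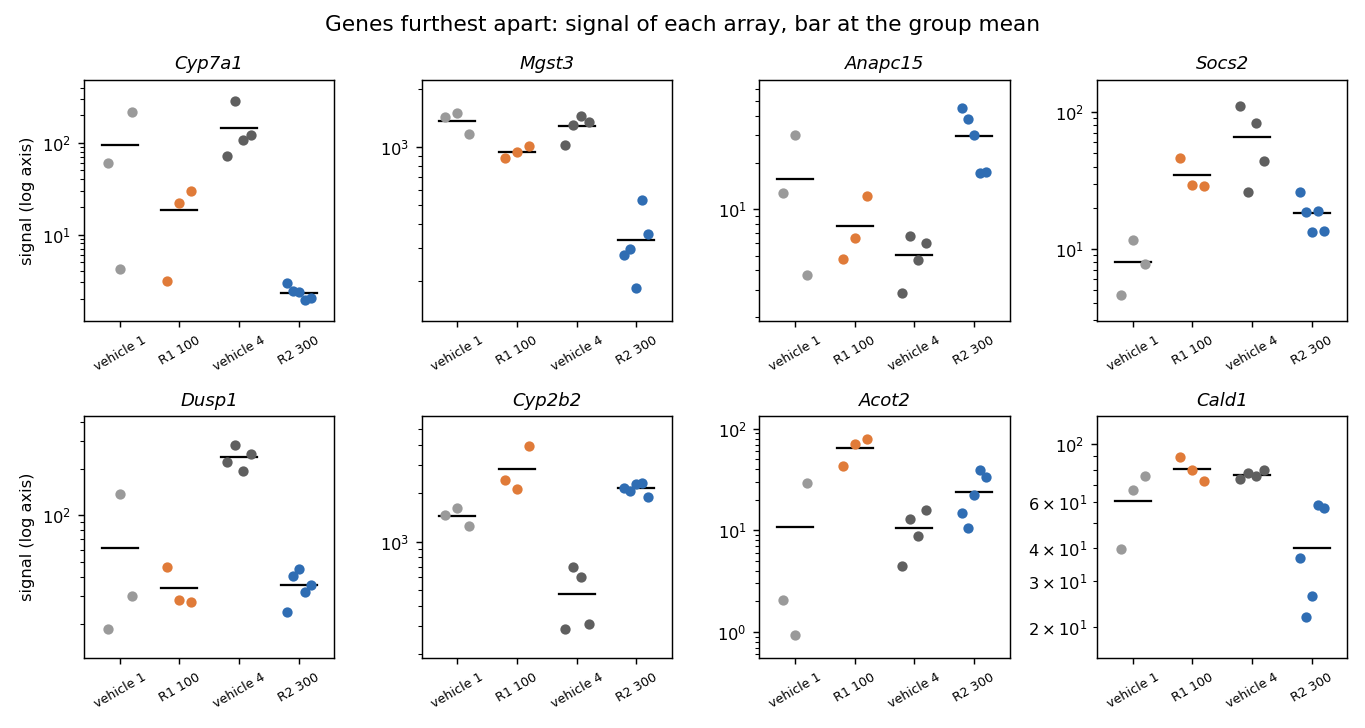
MAS5 signal of each array (points, log axis) for 8 genes whose R1 100 and R2 300 effects lay far apart, in the vehicle and R1 100 arrays of study 1 (n = 3 and 3) and the vehicle and R2 300 arrays of study 4 (n = 4 and 5), with a bar at each group mean. For Mgst3 every R2 300 array lies below all other arrays, while for Dusp1 and Cyp2b2 the vehicle groups of the studies do not overlap and the treated groups do.

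The vehicle groups themselves differed. Between the vehicle arrays of study 4 and study 1, 172 of 3696 genes were called (4.65%), 85 higher and 87 lower in study 4. Between the treated arrays, R2 300 minus R1 100, 406 were called (11%), and 371 of these (91.4%) had the same sign in the vehicle arrays; 83 were called in both, which are 20.4% of the treated calls and 48.3% of the vehicle calls. These contrasts share no array, and the share of all genes with the same sign in both was not computed. Among the 333 genes with an unadjusted p of the difference of effects under 0.05, the vehicle difference was larger than the treated difference for 147 (44.1%), against 46.5% of all genes. With the 7 vehicle arrays pooled, the vehicles cancel, which leaves only R2 300 minus R1 100 on the treated arrays. That fit called 618 probe sets, and the treated contrast with the vehicle groups kept apart called 747.

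Dusp1, a phosphatase of MAP kinases, is 1 of the 147 genes whose vehicle difference was the larger, a share no higher than among all genes. Its vehicle arrays gave 18.4, 137 and 30.0 in study 1 and 220.0, 284, 193 and 249 in study 4, a difference of 2.36 ± 0.55 (limma adjusted p = 0.00516), while the treated arrays gave 46.6, 28.6 and 27.5 with R1 and 23.8, 40.7, 44.7, 32.1 and 35.6 with R2. It fell with R2 (-2.66 ± 0.48) and gave -0.35 ± 0.58 with R1; without vehicle replicate 2 of study 1 the R1 estimate was 0.45. The difference of the effects was -2.31 (95% interval -3.84 to -0.78, unadjusted p = 0.00393, limma adjusted p = 0.316). Socs2 likewise had a vehicle difference of 2.52 ± 0.53 (limma adjusted p = 0.00191). Dbp, a clock output factor, gave 10.3, 2.75 and 4.99 and 15.5, 14.4, 12.9 and 13.2 in the vehicle arrays and fell with R2 alone (-1.50 ± 0.43), against 0.60 ± 0.53 with R1. Its difference was -2.10 (95% interval -3.47 to -0.72, unadjusted p = 0.00374, limma adjusted p = 0.316). With the probe sets of Dbp averaged, its R2 call was lost (limma adjusted p = 0.193).

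**Figure D5:**
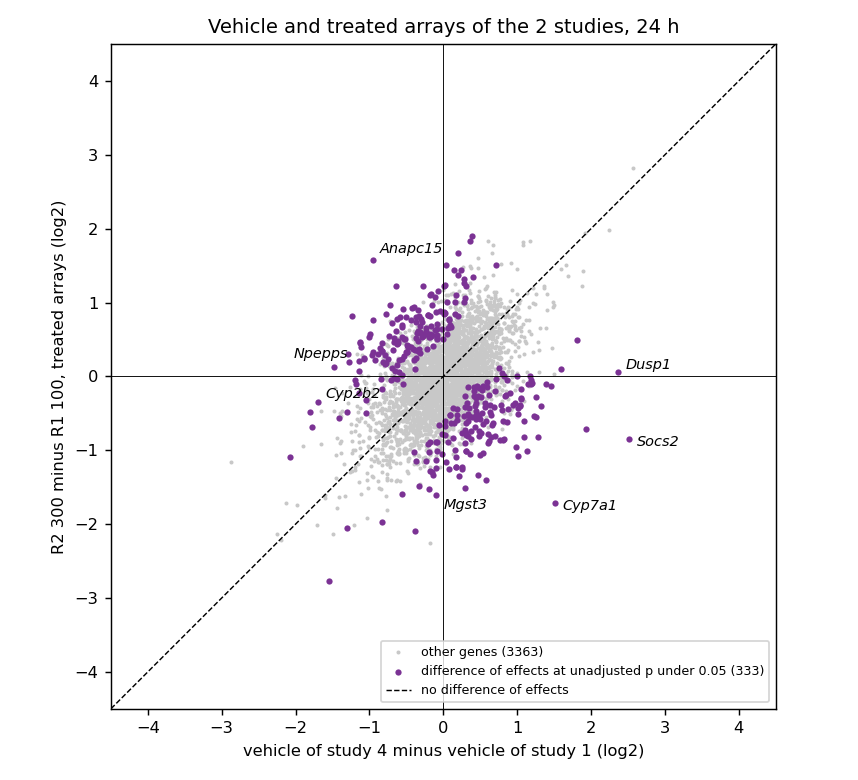
For each of 3696 genes, the vehicle arrays of study 4 minus those of study 1 (horizontal axis, log2) against the R2 300 arrays minus the R1 100 arrays (vertical axis, log2); the dashed line marks equal differences, on which the effects are equal. Purple points are the 333 genes with an unadjusted p of the difference of effects under 0.05, of which Dusp1, Socs2 and Cyp2b2 lie far along the vehicle axis and Anapc15 and Mgst3 far along the treated axis.

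Lower doses of R1 from study 1 give the scale of the dose axis; they share their vehicle arrays with R1 100. At 10, 30 and 100 mg per kg per day, R1 changed 38, 49 and 221 genes (1.03%, 1.33% and 5.98%), 28, 42 and 118 of them up, and R2 300 changed 570. Of the 90 shared risers, 17, 37 and 90 were called up at these doses (0.758%, 1.14% and 3.19% of all genes), with medians of 0.46, 0.92 and 1.31, beside 1.28 with R2. Of the 63 shared fallers, 3, 5 and 63 were called down (0.271%, 0.189% and 2.79%), with medians of -0.27, -0.59 and -1.07, beside -1.24. The choice of the shared genes used the top dose, so its counts are set by the rule.

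Counts and medians of the lists at the lower doses are given side by side; differences between lists and between doses were not tested. Of the 14 cholesterol genes, 10 rose at 10 mg per kg per day and 13 at 30, with medians of 1.20 and 2.24; Idi1 rose by 2.66 and 4.31. Of the 21 CAR and PXR targets, 5 and 10 rose, and Cyp3a23-3a1 rose by 1.78 and 2.07. Of the 19 proteasome genes, 0 and 2 rose, with medians of 0.25 and 0.48, and of the 29 amino acid genes 0 and 2 fell. Against R1 30, the R2 effect differed for 13 genes (0.352%), 5 higher and 8 lower. Eci1 and Ech1 led them, with differences of 1.91 ± 0.29 (limma adjusted p = 3.71e-04) and 1.46 ± 0.24 (6.96e-04), and Mgst3 and Efna1 were among them, at -1.81 ± 0.38 and 1.40 ± 0.32. Against R1 10 it differed for 130 genes (3.52%), 56 higher and 74 lower.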

How the data were processed

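The deposited values are signal intensities per probe set, made by the authors with MAS5, per the submitters' processing notes; the sorted values of all 44 arrays were identical, so the deposited intensities hold no array-wide shift, and batch, depth and scan are not given in the sources used here. Of 8799 probe sets, 59 were controls and 7006 had 1 gene symbol in the platform annotation. Probe sets with a group mean of at least 9.17 (the percentile 40 of all signals) were tested: 6361, or 3696 genes by the probe set with the highest mean over all arrays. The log2 of signal plus 2.888 (percentile 20) was fitted over 11 groups with limma 3.58.1 in R 4.3.3 (empirical Bayes with trend, 33 residual degrees of freedom), which tested each effect and their difference, two-sided, with Benjamini-Hochberg adjustment over probe sets. The script was tested on simulated data. Promoter motifs were searched in RefSeq sequences of build GRCr8 with Python 3.11.15. Members and gene lists were chosen with earlier results of these data known. Named genes are a part of those given by a rule: up to 12 shared risers and 12 fallers without overlap, up to 4 called members of each list, and well-known liver genes. Other list members, and the 10 genes with the smallest p of the difference, were named after their values were seen.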

Additional observations from a re-analysis of the deposited data

Results flagged for a closer look

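Among the named genes, 198 groups of 4 or 5 arrays were checked for a single array far from the rest, and 7 had one; chance gives about 1 in 20 groups. In vehicle replicate 1 of study 4, Mvd gave a signal of 16.8 against 30.1 to 33.6 in the other vehicle arrays, Eif5b 30.0 against 44.3 to 46.8, Abcb11 139 against 271 to 283, and RT1-Da 119 against 269.9 to 289. With R2 300, Efna1 gave 436 in replicate 3 against 194 to 209 in the other arrays, Sult2a2, a sulfotransferase with near-identical copies, 246 in replicate 4 against 492 to 607, and Phgdh 70.2 in replicate 2 against 85.4 to 90.9. Replicate 1 of the study 4 vehicles had a relative array weight of 0.582, the lowest of the 7 vehicle arrays.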

How the results depend on the processing

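The count of 0 probe sets called in the difference of the effects became 3 with the larger offset and 3 without the filter on low signals, 2 with the stricter filter, 2 with arrays centred on ribosomal protein genes, 1 with the 15 arrays fitted alone, 2 without the variance trend and 6 with arrays weighted. Pooling the vehicle arrays gave 618. With the 15 arrays fitted alone, the R1 calls were 301 in place of 407 and the R2 calls 814 in place of 974. Of the 153 shared genes, 112 were then still called in both effects in the same direction. Leaving out single arrays gave 0 to 9 for the difference, the 9 without R2 replicate 4, and 263 to 428 for the 407 R1 calls; weighting the arrays gave 633 R1 calls. Calls in the R2 effect ranged from 793 to 1093 and shared calls from 197 to 293 with single arrays left out. Replicate numbers did not pair the arrays, with correlations of deviations from -0.09 to 0.03 between same-numbered arrays, and the fit with the replicate block called 1 probe set in the difference. For 1 named gene the direction turned in a called value. Fasn gave -1.19 with vehicles pooled, a value that compares the treated arrays alone and is no difference of effects. Of the 99 genes followed, 38 of 63 R1 calls and 65 of 87 R2 calls stood in each alternative. Averaging the probe sets of each gene lost the R2 calls of Psma5, Gadd45a, Dbp, Cyp2b3 and Top2a. It also lost the R1 calls of Gadd45a, Sds, Scd, Slc16a1, Igf1 and Pfkfb1. It added R2 calls for Insig1, Npepps, Slc16a1, Tap1 and Cd74 and R1 calls for Psmb4 and Cyp2b3. Leaving out R2 replicates 1 and 2 together was chosen after seeing the data. Signals near the offset, such as those of Cyp7a1 with R2, carry little information on size.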
